A study of Mus musculus with 32 samples.

Results

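The neutrophil primary granule genes Mpo, Elane, Prtn3, Ctsg and Ms4a3 were followed through the eosinophil lineage of mice, from marrow progenitors to eosinophils of the marrow and blood. The genes were chosen by name, and every probe annotated to them on both versions of the beadchip was used, which gave 8 probes for 5 genes, out of 24159 shared probes for 15187 named genes. Mpo had 3 probes, Ms4a3 had 2, and Elane, Prtn3 and Ctsg had 1 each. For Mpo and Ms4a3 the gene was read from its brightest probe, called probe 1, and the others were read beside it in some comparisons. RNA had been hybridised to 32 Illumina MouseWG-6 arrays in 9 groups, all of BALB/c mice aged 7 to 12 weeks, and each array held RNA pooled from several mice. IL5T mice carry an interleukin-5 transgene under the CD2 promoter, which is active in T cells. From IL5T mice there were 5 arrays of common myeloid progenitors (CMPs), 5 of granulocyte-macrophage progenitors (GMPs), 3 of eosinophil progenitors (EoPs), 3 of marrow eosinophils with medium Siglec-F (EoM BM), 4 of those with high Siglec-F (EoH BM) and 3 of blood eosinophils with high Siglec-F (EoH PB). From wild-type (WT) mice there were 3 arrays each of CMPs, GMPs and EoPs, and no eosinophils. CMPs had been sorted as lineage-negative and Sca1-negative cells with cKit, CD34 and low CD16/32, GMPs had CD16/32 and lacked IL-5Rα, and EoPs had both CD16/32 and IL-5Rα. The lineage cocktail of these sorts held antibodies to Gr1, a neutrophil antigen, and Ter119, a red cell antigen. Eosinophils had been sorted on IL-5Rα and Siglec-F with low cKit. The title and cell type label of EoH BM give high Siglec-F, whereas its antibody label gives medium.

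Primary (azurophil) granules are the first granules a developing neutrophil makes, at the promyelocyte stage, and the messenger RNAs of their proteins are known to be switched off before the secondary granules are made. Mpo encodes myeloperoxidase, a heme enzyme that makes hypochlorous acid. Elane, Prtn3 and Ctsg encode neutrophil elastase, proteinase 3 and cathepsin G, serine proteases that are stored active in the granule. Ms4a3 encodes a membrane protein with several membrane-spanning segments rather than a granule protein, and in mice it marks cells that arise through the GMP stage. Eosinophils fill their own granules with other proteins, among them eosinophil peroxidase (Epx), a close relative of myeloperoxidase.

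The promoter windows of the genes are shown because the members share 1 short motif in them and because their levels moved together in eosinophils. The windows run from 250 bases before to 50 bases after the annotated start (RefSeq, build GRCm38.p6), are written 5′ to 3′ on the strand of the gene, and all 5 genes were found. Capitals mark GGAAGT, the core of sites bound by ETS family factors such as PU.1, or its reverse complement.
Mpo (chr11:87793534-87793833, plus strand): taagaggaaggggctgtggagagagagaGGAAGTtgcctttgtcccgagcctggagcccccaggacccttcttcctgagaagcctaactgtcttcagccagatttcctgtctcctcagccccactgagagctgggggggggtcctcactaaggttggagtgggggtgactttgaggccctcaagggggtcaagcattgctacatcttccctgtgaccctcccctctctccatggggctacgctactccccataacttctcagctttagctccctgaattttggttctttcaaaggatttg
Elane (chr10:79886062-79886361, plus strand): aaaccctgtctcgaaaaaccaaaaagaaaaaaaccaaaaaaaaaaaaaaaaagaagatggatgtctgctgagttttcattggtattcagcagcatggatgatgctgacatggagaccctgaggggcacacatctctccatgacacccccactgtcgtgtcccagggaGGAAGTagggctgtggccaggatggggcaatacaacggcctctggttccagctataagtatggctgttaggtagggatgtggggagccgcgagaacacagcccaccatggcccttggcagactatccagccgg
Prtn3 (chr10:79879417-79879716, plus strand): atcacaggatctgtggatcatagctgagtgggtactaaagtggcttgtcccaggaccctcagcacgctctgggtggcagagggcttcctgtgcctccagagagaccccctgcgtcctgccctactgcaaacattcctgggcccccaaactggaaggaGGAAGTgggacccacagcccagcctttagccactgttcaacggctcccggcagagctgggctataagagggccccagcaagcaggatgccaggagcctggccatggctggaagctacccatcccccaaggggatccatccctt
Ctsg (chr14:56102525-56102824, minus strand): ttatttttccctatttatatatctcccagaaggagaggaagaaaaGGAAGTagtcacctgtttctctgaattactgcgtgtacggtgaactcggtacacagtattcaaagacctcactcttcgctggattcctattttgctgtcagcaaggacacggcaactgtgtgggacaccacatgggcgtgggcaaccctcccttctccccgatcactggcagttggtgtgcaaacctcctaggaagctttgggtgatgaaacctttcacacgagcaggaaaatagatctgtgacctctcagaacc
Ms4a3 (chr19:11640802-11641101, minus strand): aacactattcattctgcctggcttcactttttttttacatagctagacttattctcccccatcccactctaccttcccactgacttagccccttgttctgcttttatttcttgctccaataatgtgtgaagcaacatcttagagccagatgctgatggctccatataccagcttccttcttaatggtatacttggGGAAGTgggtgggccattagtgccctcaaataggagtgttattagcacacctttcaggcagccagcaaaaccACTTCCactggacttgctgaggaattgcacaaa
GGAAGT on either strand was present in 5 of the 5 windows, against 23.8% of all 32841 promoter windows of this length. It started 83 bases before the start of Elane, 93 before that of Prtn3, 55 before that of Ms4a3, 205 before that of Ctsg and 222 before that of Mpo, and Ms4a3 had a second match from 18 bases after its start. Other motifs were rarer among the members. TAACNG, a MYB core, was in the windows of Mpo and Elane and in 23.3% of all windows. TGTGGT, a RUNX core, was in that of Ctsg and in 16.8% of all. TTNNGNAA, a C/EBP site, was in that of Ms4a3 and in 40.7% of all, and 1 of its matches there overlapped the ETS match. The TATA box letters TATAAA were in that of Ctsg and in 13.6% of all. The Ctsg match was on the reverse strand, 237 to 232 bases before the start. Near matches such as TATAAG, present in the windows of Elane and Prtn3, were not counted. The GATA factor core AGATAA was in 0 of the 5 and in 11.2% of all. The motifs were searched with the gene names known, and a match is a description of the letters only. Prtn3 and Elane lie next to each other on chromosome 10, Mpo lies on chromosome 11 close to Lpo and Epx, Ctsg on chromosome 14 next to mast cell protease and granzyme genes, and Ms4a3 on chromosome 19 beside Ms4a2.

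At a detection p under 0.05, each array detected 8360 to 10929 of the probes. The arrays came from 3 runs. The eosinophil run held all 10 eosinophil arrays on version 1.1, the first progenitor run held 3 CMP and 3 GMP arrays of IL5T mice on version 1.1, and the second held the other 16 progenitor arrays, with every EoP and WT array, on version 2.0. Eosinophils shared a run with no progenitor, so run and cell type cannot be told apart in those comparisons. Fold changes carry a term for beadchip version, which was -0.01 to -0.54 on the log2 scale (version 2.0 minus 1.1) for the 8 member probes. The values of single arrays are printed without it. The Y-linked gene Eif2s3y was detected on 0 of the 10 eosinophil arrays and on all 22 progenitor arrays. The X-linked Xist was detected on all 10 eosinophil arrays and on part of the arrays of every progenitor group. These were 4 of 5 IL5T CMP, 3 of 5 IL5T GMP and 2 of 3 IL5T EoP arrays. In WT mice they were 1 of 3 CMP, 1 of 3 GMP and 2 of 3 EoP arrays. The part of the animals' sex in the results, also between progenitor groups, was not tested. Epx and Prg2, the genes of eosinophil granule proteins, were detected on all 10 eosinophil arrays, whereas Il5ra, the gene of the sorted receptor, was detected on 1 of the 3 EoM BM arrays, 1 of the 4 EoH BM arrays and 0 of the 3 blood arrays. Epx and Prg2 were also detected on all GMP and EoP arrays. Ccr3, the eotaxin receptor gene, was detected on all 10 eosinophil arrays and on no GMP or EoP array. Siglecf was detected on 2 of the 3 EoM BM arrays, on all EoH arrays and on no progenitor array. Replicate 2 of IL5T CMPs has a data column named as a GMP. It was kept as labelled, and its Ms4a3 level of 8.49 lay within the range of the other IL5T CMP arrays.

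In GMPs the signals of the members were close to the top of the arrays. On the 8 GMP arrays 5 to 160 probes were brighter than a member's, and the members' intensities were 11335 to 32604, while the highest intensity per array was 14091 to 47068 over the series. On the CMP arrays the members spread more widely, with 41 to 6137 probes brighter. Brightness depends on the probe as well as on the RNA, so the genes were not ranked against each other. Ctsg, cathepsin G, showed no called difference between CMPs, GMPs and EoPs. Its normalised log2 intensity was 13.37, 13.72, 14.01, 14.04 and 13.51 in IL5T CMPs, 14.17, 13.95, 14.13, 14.21 and 13.76 in IL5T GMPs, and 13.76, 13.32 and 13.41 in IL5T EoPs. The CMP range overlapped both others, whereas the GMP and EoP ranges only met, at 13.76. In WT mice Ctsg was at 13.27, 14.02 and 13.59 in CMPs, 14.04, 13.71 and 13.89 in GMPs and 13.97, 13.99 and 14.03 in EoPs. Mpo lay in a band as narrow on probe 1, with 13.87 to 14.20 in IL5T CMPs, 14.02 to 14.41 in IL5T GMPs and 13.42 to 13.83 in IL5T EoPs. On these values, without the version term, the IL5T EoP arrays of Mpo lay below the IL5T CMP and GMP arrays. The order depended on the scaling. With arrays scaled to a common median the IL5T EoP arrays were at 14.47, 14.21 and 14.14. IL5T CMPs were then at 13.47 to 14.37 and IL5T GMPs at 13.84 to 14.67. On probe 3 Mpo was at 12.55 to 12.99 in IL5T EoPs and at 14.21 to 14.52 in IL5T GMPs. The part of the arrays' upper limit in these levels was not tested.

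**Figure D1:**
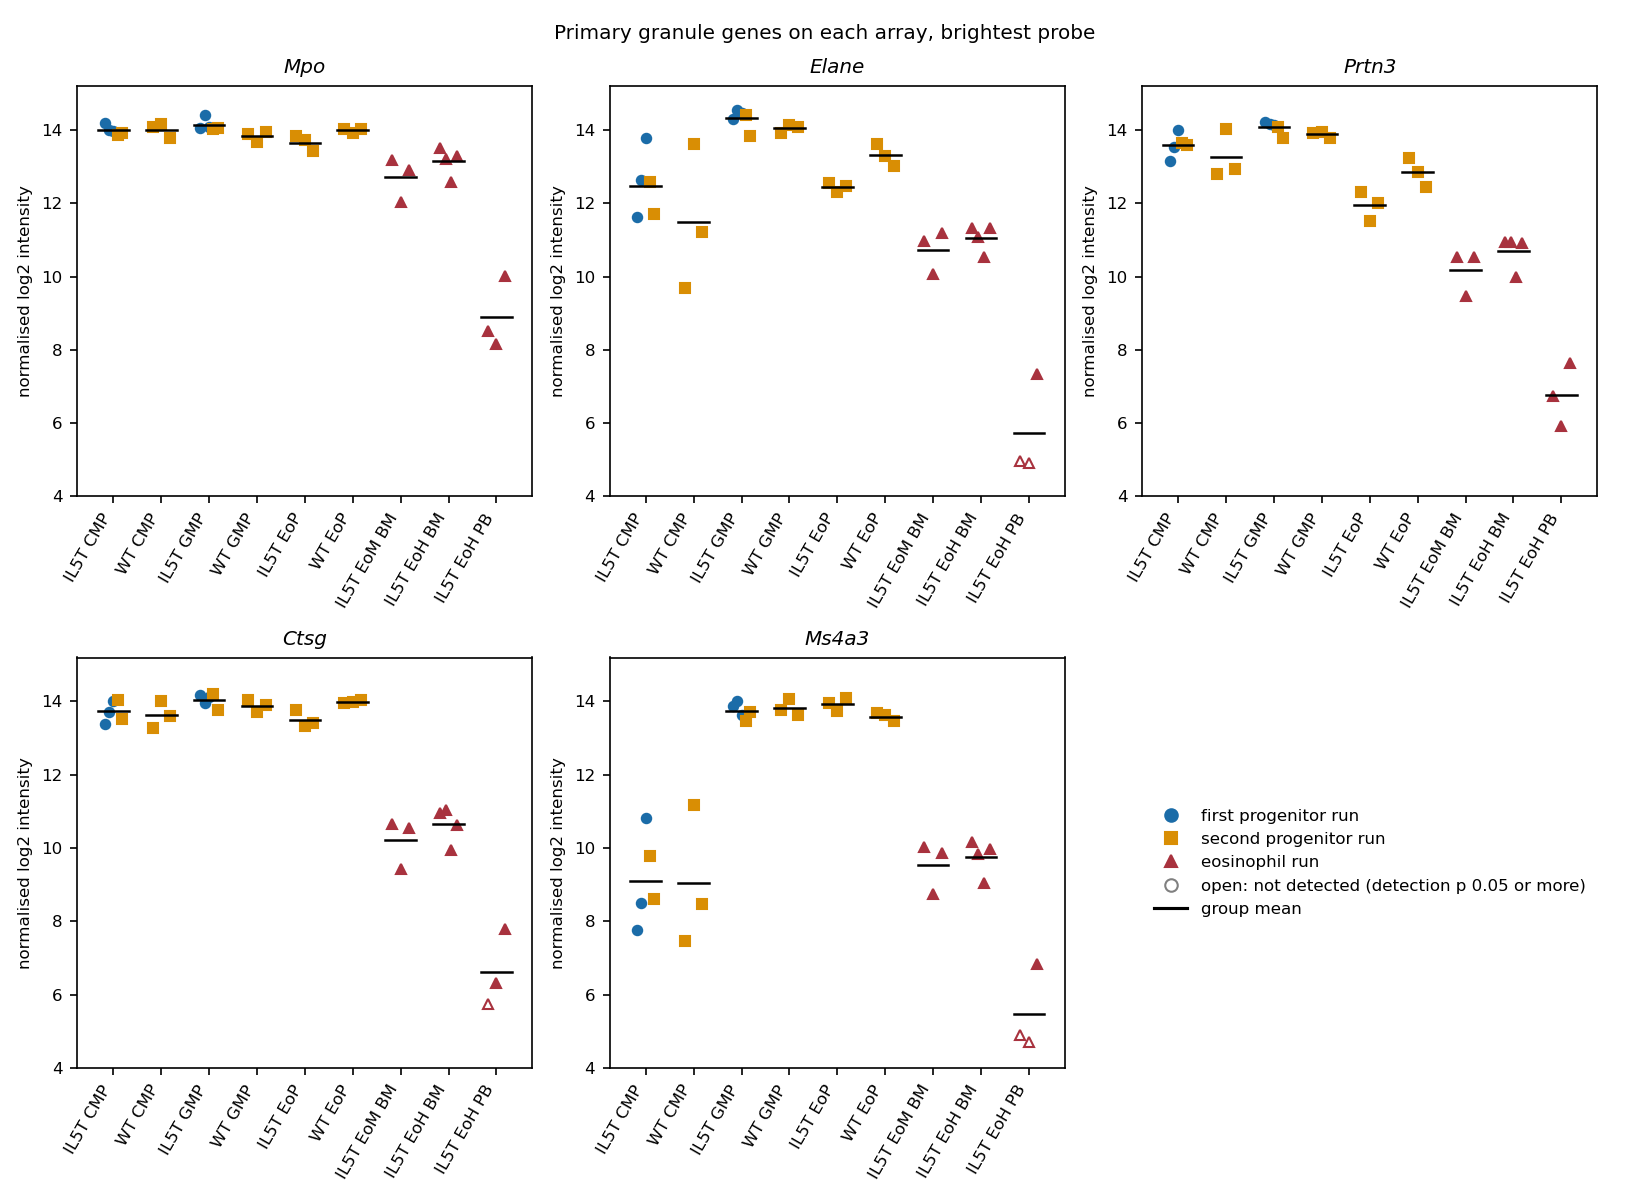
Normalised log2 intensity of the brightest probe of each member on every array, by group in developmental order, with IL5T left of WT in each progenitor stage. Points are arrays, coloured by run, open points were not detected, and lines are group means. Ms4a3 stands low in CMPs and all members stand lowest in EoH PB.

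GMPs differed from CMPs of the same mice in 2 of the 5 genes, Ms4a3 and Elane, which were both higher in GMPs, and this was so in IL5T and in WT mice. Of all probes, 4.49% were called as higher in GMPs of IL5T mice and 4.24% in GMPs of WT mice. Ms4a3 was at 13.87, 14.02, 13.62, 13.48 and 13.70 in IL5T GMPs, against 7.76, 8.49, 10.83, 9.77 and 8.62 in IL5T CMPs. The GMP arrays lay close together and the CMP arrays were spread over 3.07 log2 units, without overlap. The log2 fold change was 4.64 (SE 0.54), a 25.0-fold difference (limma, adjusted p = 5.85e-07). In WT mice Ms4a3 was at 13.78, 14.07 and 13.62 in GMPs, against 7.47, 11.16 and 8.48 in CMPs, a log2 fold change of 4.78 (SE 0.70; limma, adjusted p = 2.19e-05). The dim probe 2 of Ms4a3 gave 2.45 in IL5T mice (adjusted p = 3.12e-08), and was not detected on any WT CMP array, where WT GMPs were at least 3.49-fold higher. For such a bound an undetected probe was given the lowest signal that any probe detected on that array had, or its own signal if larger.

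Elane, neutrophil elastase, was at 14.31, 14.54, 14.47, 14.42 and 13.85 in IL5T GMPs, against 11.62, 12.63, 13.77, 12.57 and 11.72 in IL5T CMPs. The lowest GMP array stood just above the highest CMP array. The log2 fold change was 1.85 (SE 0.51; limma, adjusted p = 0.0157), and the call was lost without IL5T CMP replicate 1 (adjusted p = 0.0647) or replicate 5 (adjusted p = 0.0543). Within the first progenitor run it was 1.76 (adjusted p = 0.136), and within the second 1.99 (adjusted p = 0.236). In WT mice Elane was at 13.92, 14.14 and 14.07 in GMPs, against 9.68, 13.60 and 11.21 in CMPs. The difference was 2.54 (SE 0.66; adjusted p = 0.0118), and without WT CMP replicate 1 it was 1.64 (adjusted p = 0.137). Prtn3 and Ctsg differed by 0.50 and 0.31 between IL5T GMPs and CMPs and by 0.63 and 0.25 between WT GMPs and CMPs, and Mpo on probe 1 by 0.13 and -0.17, none past the threshold. The other Mpo probes were not alike. After removal of the version effect, probe 3 averaged 14.35 in IL5T GMPs against 13.82 in CMPs, and 14.61 against 13.53 in WT mice. Probe 2 averaged 14.26 against 14.22 in IL5T mice and 14.01 against 14.34 in WT mice.

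CMP arrays differed among themselves in the same genes. WT CMP replicate 2 was the highest of the 3 WT CMP arrays for 5 of 5 members, by 0.07 to 2.68 log2 units over the next array, with the widest gap in Ms4a3. IL5T CMP replicate 3 was the highest of the 5 IL5T CMP arrays for Elane, Ms4a3 and Prtn3. The mean log2 level of the neutrophil specific and gelatinase granule genes ran from 5.31 to 7.54 in WT CMPs and from 5.73 to 7.63 in IL5T CMPs. The part of other cells in these CMP sorts was not tested.

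**Figure D2:**
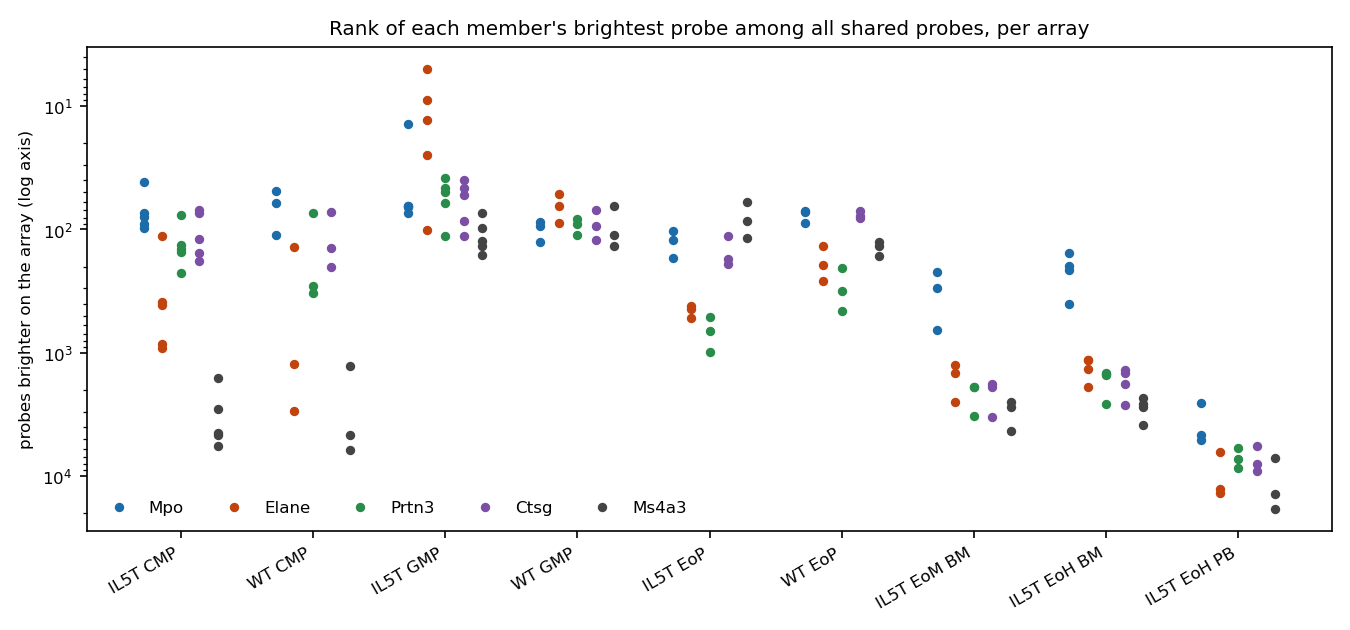
Number of probes brighter than each member's brightest probe on the same array (log axis, fewest at the top), by group, with 1 point per array. In GMPs 5 to 160 probes were brighter and in EoH PB 2555 to 18565.

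In EoPs Prtn3 was lower than in GMPs of IL5T mice, and Elane was lower on every array but not called in the fit over all groups. Of the 5 members 1 was called, against 4.54% of all probes called as lower, while 3 of 5 members had arrays that did not overlap, against 8.49% of all probes lower without overlap. Prtn3, proteinase 3, was at 12.32, 11.52 and 12.01 in IL5T EoPs, against 14.22, 14.17, 14.15, 14.09 and 13.77 in IL5T GMPs. Every EoP array was below every GMP array, with a log2 fold change of -2.07 (SE 0.37; limma, adjusted p = 0.000309). Elane was at 12.54, 12.30 and 12.47 in IL5T EoPs, also below every GMP array, with -1.63 (95% interval -3.01 to -0.26; adjusted p = 0.154). The spread in that fit includes the CMP arrays of Elane. With only IL5T EoPs and GMPs in the fit it passed at -1.70 (adjusted p = 0.00104), and it passed with no version term (adjusted p = 0.0348) and without WT CMP replicate 2, the highest WT CMP array for Elane (adjusted p = 0.0480). Ms4a3 was at 13.95, 13.74 and 14.09 in IL5T EoPs, within 1 log2 unit of the GMP arrays, a difference of 0.21 (95% interval -1.25 to 1.67). The 3 probes of Mpo gave -0.37, 0.03 and -1.34, of which only the third was called (adjusted p = 0.0229).

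In WT mice the same comparison called 9.22% of all probes and none of the 5 members, with 1 member at an unadjusted p under 0.05. Prtn3 was at 13.25, 12.85 and 12.44 in WT EoPs, against 13.92, 13.95 and 13.79 in WT GMPs, and differed by -1.04 (95% interval -1.80 to -0.28; adjusted p = 0.0828). Without IL5T EoH PB replicate 3 in the fit the adjusted p was 0.0489 and within the second progenitor run 0.0442. Elane was at 13.63, 13.30 and 13.02 in WT EoPs, with -0.73 (adjusted p = 0.654). For both genes every EoP array was below every GMP array, against 15.4% of all probes. The difference between the 2 genotypes in this step was -1.03 for Prtn3 and -0.91 for Elane, and neither passed the threshold (adjusted p = 0.372 and 0.750), as did 0 of the 5 members, against 3.26% of all probes.

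Marrow eosinophils still held all members above detection on all 7 arrays, at levels below those of EoPs. In EoM BM 4 of the 5 genes fell relative to IL5T EoPs and in EoH BM 3 of 5, against 15.1% and 16.1% of all probes called as lower. The eosinophil arrays lay below the EoP arrays without overlap for 5 of 5 members in EoM BM and 4 of 5 in EoH BM, against 25.4% and 23.3% of all probes. Over the 5 genes the median log2 fold change was -2.12 in EoM BM and -1.79 in EoH BM, against 0.02 for all probes in both. The size of the difference was uneven among the members. Ms4a3 was at 10.04, 8.74 and 9.87 in EoM BM and at 10.17, 9.84, 9.06 and 9.98 in EoH BM, against 13.95, 13.74 and 14.09 in EoPs. No marrow eosinophil array came within 3 log2 units of an EoP array, and the log2 fold changes were -4.42 (SE 0.89; limma, adjusted p = 0.000307) and -4.20 (SE 0.86; adjusted p = 0.000318). Ctsg was at 10.66, 9.43 and 10.54 in EoM BM and at 10.96, 11.04, 9.93 and 10.64 in EoH BM, against 13.76, 13.32 and 13.41 in EoPs. Its log2 fold changes were -3.30 (SE 0.47; adjusted p = 2.76e-06) and -2.87 (SE 0.45; adjusted p = 1.05e-05). These are differences of 9.87-fold and 7.31-fold.

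Prtn3 was at 10.54, 9.48 and 10.54 in EoM BM and at 10.96, 10.95, 9.98 and 10.91 in EoH BM, against 12.32, 11.52 and 12.01 in EoPs. All eosinophil arrays were below all EoP arrays, with -1.87 (SE 0.47; adjusted p = 0.00290) in EoM BM and -1.35 (SE 0.45; adjusted p = 0.0233) in EoH BM. The EoH BM call did not hold when EoH BM replicate 3 (-1.11, adjusted p = 0.0652), IL5T EoP replicate 1 (-1.16, adjusted p = 0.0811) or IL5T GMP replicate 5 (-1.25, adjusted p = 0.0510) was left out. Elane was at 10.97, 10.06 and 11.18 in EoM BM and at 11.32, 11.07, 10.53 and 11.32 in EoH BM, against 12.54, 12.30 and 12.47 in EoPs. Its arrays did not overlap, but -2.12 (95% interval -3.85 to -0.39; adjusted p = 0.0618) and -1.79 (95% interval -3.46 to -0.13; adjusted p = 0.103) did not pass the threshold in the fit over all 9 groups, whose spread for Elane includes the CMP arrays. With only the 2 groups compared in the fit both passed, at -1.70 in EoM BM (adjusted p = 0.00496) and -1.37 in EoH BM (adjusted p = 0.00142). Without WT CMP replicate 2 both passed too (adjusted p = 0.0148 and 0.0313), as they did without WT CMP replicate 1 (adjusted p = 0.0257 and 0.0498). The EoM BM difference also passed without EoH PB replicate 3 (adjusted p = 0.0346) or IL5T CMP replicate 1 (adjusted p = 0.0364).

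Mpo, myeloperoxidase, gave a result that differed between its probes. Probe 1 was at 13.17, 12.04 and 12.91 in EoM BM and at 13.51, 13.21, 12.58 and 13.28 in EoH BM, against 13.83, 13.72 and 13.42 in EoPs. The EoM BM arrays lay below the EoP arrays and 1 EoH BM array reached into their range. The difference was -1.11 (SE 0.39; adjusted p = 0.0345) in EoM BM and -0.67 (95% interval -1.44 to 0.11; adjusted p = 0.214) in EoH BM. The EoM BM call was lost without EoM BM replicate 2 (-0.77, adjusted p = 0.160) and with adjusted p = 0.0510 to 0.0850 without IL5T CMP replicate 1 or 4, GMP replicate 2 or 4, or EoP replicate 1 or 2. It was also lost with array run as a random block (adjusted p = 0.0764), with only the groups compared (-0.95, adjusted p = 0.0528) and with array weights (-1.03, adjusted p = 0.0520). Probes 2 and 3 of Mpo both fell in both eosinophil groups, with log2 fold changes of -2.63 (EoM BM) and -2.03 (EoH BM) for probe 2 and -3.26 (EoM BM) and -3.05 (EoH BM) for probe 3. The mean of the 3 probes passed in EoH BM, at -1.92 (adjusted p = 0.000223). Why the probes differ was not tested.

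**Figure D3:**
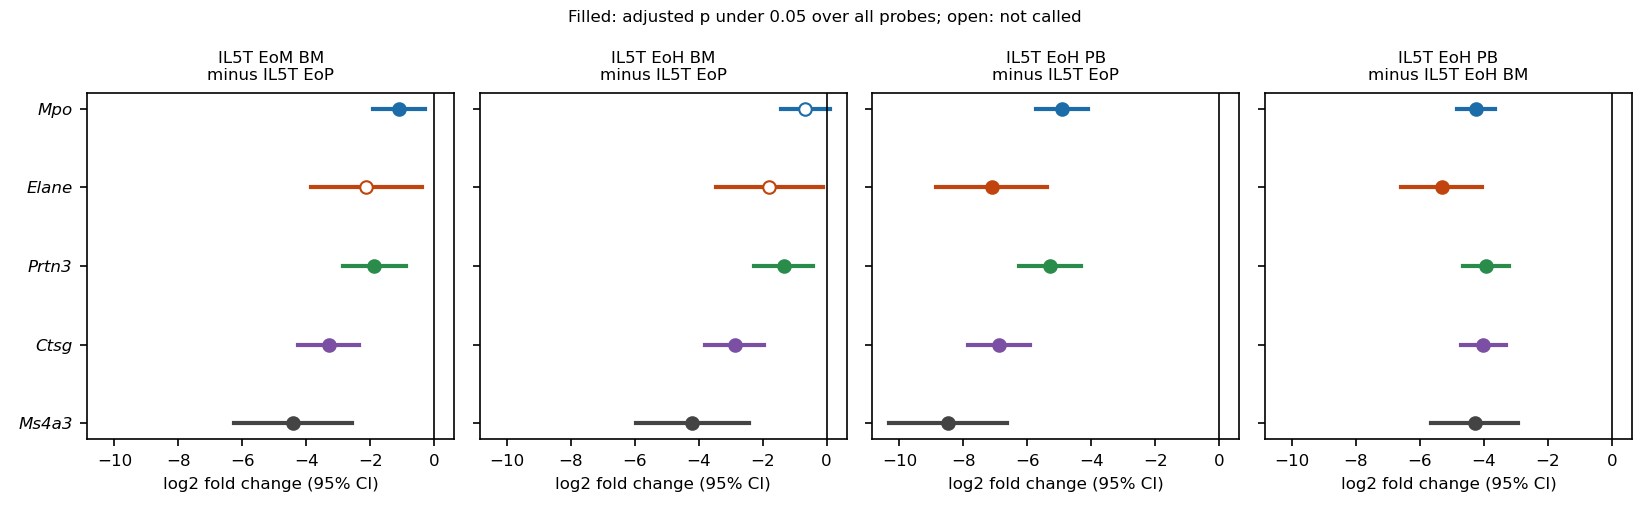
Log2 fold change of each member with its 95% confidence interval for the eosinophil groups against IL5T EoPs and for EoH PB against EoH BM. Filled points passed an adjusted p of 0.05 over all probes. For every member the estimate of EoH PB against EoPs (-4.92 to -8.49) lies farther from 0 than those of both marrow groups against EoPs (-0.67 to -4.42), and Elane, Ctsg and Ms4a3 were not detected on all blood arrays.

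Set against GMPs of IL5T mice, 5 of 5 members fell in each of the 3 eosinophil groups EoM BM, EoH BM and EoH PB, against 17.5%, 18.8% and 18.3% of all probes called as lower. These comparisons share the eosinophil arrays with those above. The median log2 fold change was -3.84 in EoM BM and -3.42 in EoH BM. Elane fell by 3.75 (SE 0.62; adjusted p = 1.95e-05) in EoM BM and fell by 3.42 (SE 0.58; adjusted p = 2.21e-05) in EoH BM relative to GMPs. Mpo had log2 fold changes of -1.48 (adjusted p = 0.000172) and -1.04 (adjusted p = 0.00289) on probe 1, and its other probes differed more. After removal of the version effect, probe 2 averaged 14.26 in IL5T GMPs, 11.65 in EoM BM and 12.25 in EoH BM. Probe 3 averaged 14.35, 9.75 and 9.95 in the same groups. Ms4a3 probe 2 was not detected on any eosinophil array. It was at least 3.88-fold lower in EoM BM, 4.07-fold lower in EoH BM and 4.02-fold lower in blood eosinophils than in IL5T EoPs.

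On its brightest probe each member had its lowest group mean in blood eosinophils. In EoH PB 5 of 5 members fell relative to IL5T EoPs, against 16.1% of all probes called as lower. Mpo and Prtn3, detected on all 3 blood arrays, had log2 fold changes of -4.92 and -5.28. The other 3 were not detected on every blood array and have bounds, with undetected arrays raised as above, of at least 71.0-fold lower for Elane, 115-fold lower for Ctsg and 224-fold lower for Ms4a3 than in IL5T EoPs. Relative to EoH BM, the marrow cells of the same Siglec-F class, 5 of 5 fell, against 2.64% of all probes, and relative to EoM BM 5 of 5, against 7.45%. Mpo was at 8.50, 8.16 and 10.00 in EoH PB, against 13.51, 13.21, 12.58 and 13.28 in EoH BM, a 19.1-fold difference. Elane was at 4.98, 4.91 and 7.33 in EoH PB, against 11.32, 11.07, 10.53 and 11.32 in EoH BM. Only the third blood array was detected for Elane, which was at least 27.4-fold lower in EoH PB (limma, adjusted p = 9.79e-07). Ms4a3 was at 4.89, 4.71 and 6.83 in EoH PB, again detected on 1 of 3 arrays, against 10.17, 9.84, 9.06 and 9.98 in EoH BM, and was at least 12.5-fold lower (adjusted p = 6.19e-05). Prtn3 was at 6.74, 5.92 and 7.65 in EoH PB, detected on all 3 arrays, and Ctsg at 5.75, 6.32 and 7.80, detected on 2 of 3. Relative to EoH BM, the log2 fold change was -3.93 for Prtn3 (SE 0.35; adjusted p = 8.70e-09), and Ctsg was at least 15.8-fold lower (adjusted p = 4.84e-09). Without EoH PB replicate 3, the highest blood array, the fitted log2 fold changes relative to EoH BM, with undetected arrays at their own signal, were -4.81 for Mpo, -6.12 for Elane, -4.37 for Prtn3, -4.61 for Ctsg and -4.96 for Ms4a3, against -4.26, -5.32, -3.93, -4.02 and -4.29 with it. In sorted pools a smaller share of cells with the RNA and less RNA per cell cannot be told apart.

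Marrow eosinophils with high and medium Siglec-F did not differ past the threshold in any member, with 0 of 5 called and 0 of 5 at an unadjusted p under 0.05, against 8.44% of all probes called. EoH BM minus EoM BM was 0.44 for Mpo (95% interval -0.15 to 1.04), 0.33 for Elane (-0.94 to 1.60), 0.52 for Prtn3 (-0.20 to 1.23), 0.43 for Ctsg (-0.27 to 1.14) and 0.22 for Ms4a3 (-1.14 to 1.57). Each interval reaches past 1 log2 unit.

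Within the eosinophil groups the members moved together from array to array. EoM BM replicate 2 was the lowest EoM BM array for 5 of 5 members, by 0.87 to 1.12 log2 units, EoH BM replicate 3 was the lowest EoH BM array for 5 of 5, by 0.53 to 0.93, and EoH PB replicate 3 was the highest blood array for 5 of 5, by 0.91 to 2.35. Across the 10 eosinophil arrays, Pearson's r between pairs of members was 0.983 to 0.997, a description that includes the marrow to blood difference and arrays of 1 run. Across the 22 progenitor arrays it was -0.14 to 0.79. Some lists of other cell types moved on the same arrays. Beside a mean log2 level of the members of 11.07, 9.95 and 11.01 in EoM BM, 5 B cell genes averaged 9.30, 7.96 and 9.38, and 7 red cell genes averaged 7.99, 6.85 and 8.55. The neutrophil specific and gelatinase granule genes averaged 11.55, 11.00 and 11.56, and eosinophil genes 10.69, 10.73 and 10.56. In EoH BM the members averaged 11.39, 11.22, 10.42 and 11.22, the B cell genes 9.30, 8.79, 8.00 and 9.92, the red cell genes 8.36, 9.43, 7.35 and 8.44, and the neutrophil specific granule genes 11.08, 11.08, 9.59 and 10.94. In both marrow groups the array lowest in the members was lowest in these 3 lists too. The eosinophil genes averaged 10.54, 10.59, 10.40 and 10.60 in EoH BM, so their replicate 3 was also the lowest there. Other lists spread less over the EoM BM arrays, with means of 5.69 to 5.88 for T cell genes and 6.72 to 7.06 for mast cell and basophil genes. Over the EoH BM arrays these 2 lists ran from 5.34 to 5.75 and from 5.96 to 7.08. Over the whole lists, the summed level of the 11 measured neutrophil specific granule genes was 74741 to 96384 in EoM BM, 34703 to 80079 in EoH BM and 24544 to 37294 in blood, against 8925 to 11024 in IL5T EoPs, and 10 of 11 were detected on all marrow eosinophil arrays. That of the 5 measured B cell genes was 1636 to 4840 in EoM BM, 1701 to 6865 in EoH BM and 4889 to 7599 in blood, against 766 to 926 in IL5T EoPs, and 5 of 5 were detected on all marrow eosinophil arrays. The neutrophil specific granule list also holds Ltb4r1, the gene of a receptor. In IL5T EoPs Ltb4r1 averaged 13.05 on the log2 scale, against 8.87 or less for the other listed genes, so it makes up most of that sum.

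In blood the lists were ordered otherwise. The members averaged 6.17, 6.00 and 7.92 in EoH PB, the neutrophil specific granule genes 8.72, 9.40 and 9.85, the B cell genes 8.22, 8.24 and 7.90 and the red cell genes 6.70, 5.67 and 5.67. The eosinophil genes averaged 9.30, 9.70 and 9.89. Replicate 3 was thus the highest in the members, the neutrophil list and the eosinophil list and the lowest in B cell genes. The cKit gene Kit was at 8.51 to 8.99 in EoM BM and 7.33 to 8.58 in EoH BM and was not detected on any EoH PB array, against 11.20 to 11.34 in IL5T EoPs. The part of other cells in the members' levels was not tested.

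**Figure D4:**
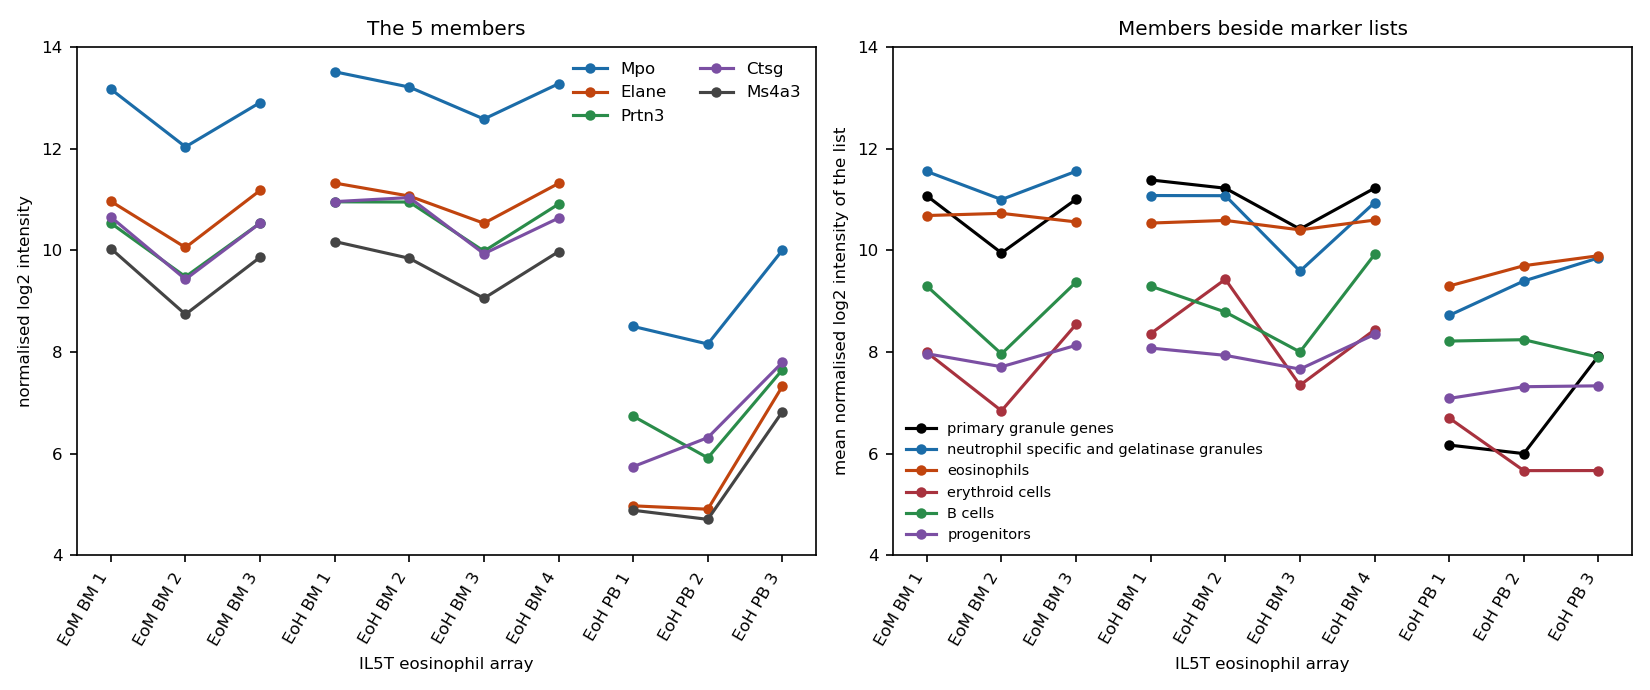
Left, normalised log2 intensity of each member on the 10 IL5T eosinophil arrays (replicates of EoM BM, EoH BM and EoH PB, joined within a group for reading only). Right, the mean of the 5 members on the same arrays beside the means of 5 marker lists. EoM BM replicate 2 and EoH BM replicate 3 are the lowest marrow arrays for the members at 9.95 and 10.42.

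Between IL5T and WT mice no member was called in CMPs, GMPs or EoPs, against 0.691%, 0.0745% and 7.30% of all probes. In EoPs 1 of the 5 genes had an unadjusted p under 0.05, and the arrays did not overlap for 5 of 5, 4 lower and 1 higher in IL5T EoPs, against 11.4% and 12.5% of all probes without overlap in those directions. Prtn3 was at 12.32, 11.52 and 12.01 in IL5T EoPs, against 13.25, 12.85 and 12.44 in WT EoPs, a difference of -0.90 (95% interval -1.66 to -0.14; adjusted p = 0.164). Elane was at 12.54, 12.30 and 12.47 in IL5T EoPs, against 13.63, 13.30 and 13.02 in WT EoPs, a difference of -0.88 (95% interval -2.24 to 0.48; adjusted p = 0.550). With only the EoP arrays in the fit, Elane passed (adjusted p = 0.0316) and Prtn3 did not (adjusted p = 0.119). Ctsg differed by -0.50 (adjusted p = 0.542) and Mpo by -0.34 (adjusted p = 0.664), with 0.14 and -0.92 on probes 2 and 3 of Mpo. Ms4a3 had the opposite sign, at 13.95, 13.74 and 14.09 in IL5T EoPs, against 13.68, 13.62 and 13.46 in WT EoPs, a difference of 0.34 (95% interval -1.10 to 1.79). In CMPs the differences ran from -0.10 to 0.72 and in GMPs from -0.11 to 0.19. All EoP arrays were in 1 run on 1 version.

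**Figure D5:**
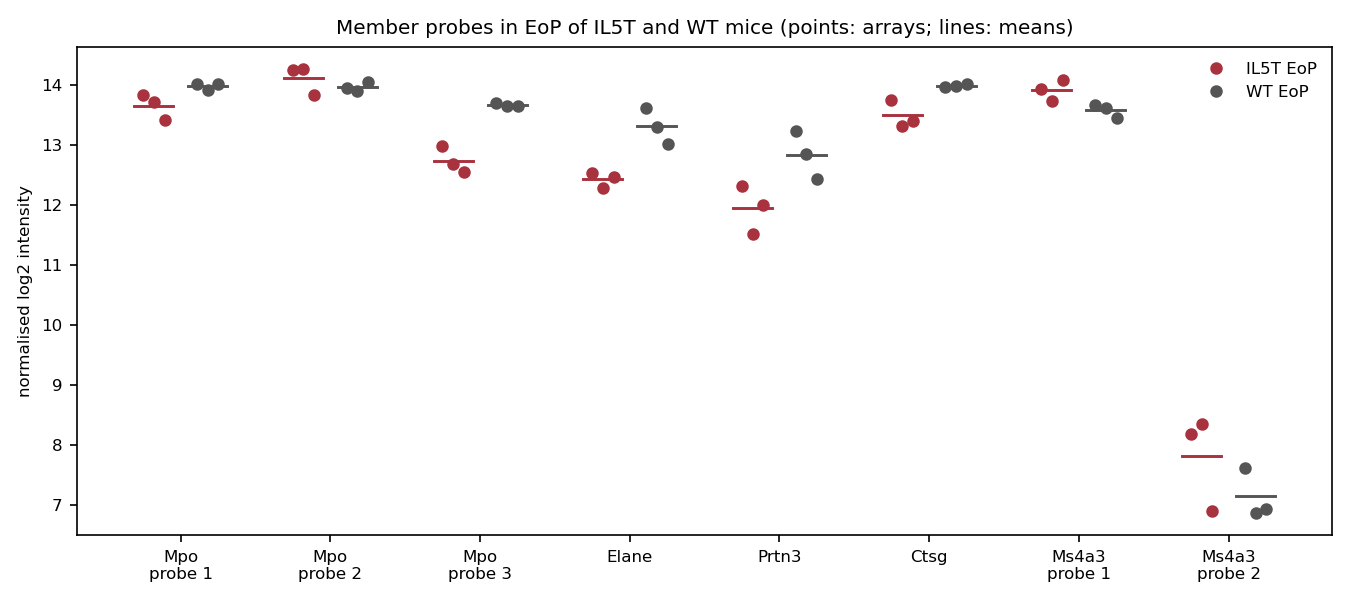
Normalised log2 intensity of the 8 member probes in EoPs of IL5T mice (left of each pair) and WT mice, with 1 point per array and lines at the means. Prtn3 lies at 11.52 to 12.32 in IL5T EoPs and at 12.44 to 13.25 in WT EoPs.

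Ordered by group means after removal of the version effect, IL5T GMPs came first for Mpo, Elane, Prtn3 and Ctsg and EoH PB came last for all 5 genes. Of the 8 steps between neighbours in the order, Mpo and Elane each had 1 called step, from EoM BM down to EoH PB. Prtn3 and Ctsg each had 2, from IL5T EoPs to EoH BM and from EoM BM to EoH PB. Ms4a3 also had 2 but in another order, with EoPs and GMPs at the top (13.60 to 13.95), then EoH BM, EoM BM and both CMP groups (9.06 to 9.74), whose neighbours did not differ past the threshold, and then EoH PB (5.46). Ms4a3 was thus the only member whose marrow eosinophil means lay above the CMP means.

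Other genes of the primary granule followed the members only in part. Of 11 listed contents 8 were measured, and 5 rose and 0 fell in IL5T GMPs relative to CMPs, against 4.49% of all probes called as higher. Nkg7, a membrane protein of cytotoxic and azurophil granules, was higher in GMPs by 1.54, the cystatin gene Cst7 by 1.00, Srgn, the granule proteoglycan serglycin, by 0.95 and the lysosomal Hexa by 0.85. In EoM BM relative to EoPs 2 rose and 3 fell, against 13.8% of all probes called as higher and 15.1% as lower, and the list median was -0.24, against 0.02 for all probes. Nkg7 fell by 3.83 and Srgn by 2.02, whereas Lyz2, lysozyme, rose by 1.77 and Hexa rose by 0.90. Bpi was detected on no array (group means of 4.62 to 4.81). In EoH PB relative to EoH BM Nkg7 fell by 1.61 and Lyz1 rose by 2.11. Lysozyme is also made by macrophages and mature neutrophils.

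Genes that process or restrain the proteases changed in both directions. Of 9 listed, 8 were measured, and in EoM BM 2 rose and 0 fell relative to IL5T EoPs, against 13.8% of all probes called as higher. These were Slpi (1.93), an inhibitor of elastase and cathepsin G, and Serpinb6a (1.73), an inhibitor of cathepsin G. Both Slpi and Serpinb1a, which inhibits elastase, proteinase 3 and cathepsin G, were lower in IL5T EoPs than in WT EoPs, with log2 fold changes of -1.37 and -1.89, and lower in IL5T EoPs than in IL5T GMPs, with -2.14 and -1.69, the step at which Prtn3 fell too. These were the 2 of 8 that fell there, against 4.54% of all probes called as lower, and 1 rose, Serpinb6a (0.62), against 4.77% as higher. For Serpinb1a the genotype difference in EoPs differed from that in GMPs by -1.92 and for Slpi by -1.51, both called. Of all probes 3.26% were called in that test and 7.30% between IL5T and WT EoPs, in either direction. The number of listed genes called in these 2 comparisons is not given. Ctsc, whose product trims the proteases to their active form, had group means of 4.81 to 5.86 and was detected on all arrays of IL5T EoPs and WT GMPs only.

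Of 13 listed genes of folding and heme supply for myeloperoxidase, 10 were measured. In IL5T GMPs relative to CMPs 3 rose, the chaperones Pdia3 (0.38) and Hspa5 (1.43) and Alas1 (1.57), the rate-limiting enzyme of heme synthesis, and 0 fell, against 4.49% of all probes called as higher. In IL5T EoPs relative to GMPs 4 rose, against 4.77% of all probes, among them Hspa5 (1.17) and Fech (1.39), the enzyme that inserts iron into heme. In EoM BM relative to EoPs 6 fell and 1 rose, against 15.1% of all probes called as lower and 13.8% as higher, with Hspa5 at -2.77, Alad at -1.78, Fech at -1.66 and Pdia3 at -1.63, and a list median of -1.05 against 0.02. Eosinophil peroxidase is a heme protein too, and its gene Epx was at 14.35 in IL5T EoPs, 12.94 in EoM BM and 9.50 in EoH PB (means of 3 arrays each).

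Among 13 listed transcription factors of promyelocytes 11 were measured, and single genes rather than the number called are given. In IL5T EoPs relative to GMPs 4.54% of all probes were called as lower and 4.77% as higher. Cebpa, which is required to form GMPs, fell by 2.30 and Cebpe, which acts at the step from primary to secondary granules, rose by 2.35 in IL5T EoPs relative to GMPs. In WT mice they changed by -1.44 and 2.89. Myb, a regulator of Elane and Mpo, averaged 8.13 in IL5T EoPs and 7.59 in IL5T GMPs, and was called as lower in EoM BM and EoH BM than in EoPs, where it was detected on 0 of the 7 arrays. In the same comparisons Myc had log2 fold changes of -3.61 and -4.15, whereas Cebpb rose by 1.59 and 2.28 and Spi1, which encodes PU.1, by 1.26 and 1.07. Runx1 was not called in either comparison. As group means without the version term, Lmo2 was at 13.08 in IL5T GMPs, 11.24 in IL5T EoPs and 12.14 in EoM BM. In the same groups Cebpd was at 10.15, 9.81 and 8.89, Etv6 at 8.63, 7.89 and 8.57 and Cbfb at 12.76, 12.29 and 12.14.

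Of 22 listed chromosomal neighbours of the members 16 were measured, and 1 fell and 0 rose in EoH PB relative to EoH BM, against 2.64% of all probes called as lower. That gene was Epx, which fell by 2.76. In IL5T GMPs relative to CMPs 4 rose, against 4.49% of all probes, among them Tspoap1 (2.04), which lies beside Mpo, and Mcpt8 (1.67), near Ctsg. Lpo, next to Mpo, was detected on no array (group means of 4.62 to 4.93). Ms4a2, next to Ms4a3, rose by 2.96 in IL5T EoPs relative to GMPs, where Ms4a3 differed by 0.21.

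Secondary granule genes, which are made after the primary ones in neutrophils, ran the other way. Of 12 listed specific and gelatinase granule genes 11 were measured, and 9 rose and 0 fell in EoM BM relative to IL5T EoPs, against 13.8% of all probes called as higher, and 8 rose and 0 fell in EoH BM, against 14.5%. The 11 include Ltb4r1, the gene of a receptor rather than a granule protein. The list medians were 6.26 in EoM BM and 3.49 in EoH BM, and as plain differences of group means, without the version term, 5.33 and 3.08. Ltf, lactoferrin, averaged 14.27 in EoM BM and 7.44 in IL5T EoPs, and its log2 fold change with the version term was 8.66 (SE 1.46). That of Ngp was 8.16, of Camp, cathelicidin, 6.82 and of Mmp9, gelatinase B, 6.80. The plain difference of group means was smaller for Ltf (6.83), Ngp (5.54) and Camp (5.69), and was 6.82 for Mmp9. In EoH PB relative to EoH BM 3 of them fell, against 2.64% of all probes, Cd177 by 2.23, Itgb2l by 1.68 and Olfm4 by 1.65, and 0 rose. Csf3r, the receptor gene for the neutrophil growth factor G-CSF, averaged 6.11 in EoM BM and 6.75 in IL5T EoPs (adjusted p = 0.616). It is among 6 measured mature neutrophil genes, and the means of the others were higher in EoM BM than in IL5T EoPs. Retnlg averaged 14.40 in EoM BM against 8.56 in EoPs, and S100a8 13.70 against 10.37. Padi4, Stfa2l1 and Cxcr2 averaged 11.27, 6.30 and 5.94 in EoM BM and were not detected on any IL5T EoP array.

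The genes with the pattern most like each member over the 32 arrays were named after removal of the version effect. For Mpo they were Clspn, Cdk1, Bcl7a, Prc1 and Spag5, with Pearson's r of 0.95 to 0.94. For Elane they were Sgo2a, Clspn, Tiam1, Cdk1 and Aurkb (0.93 to 0.90), and for Prtn3 Tk1, Bcl7a, Uhrf1, Kit and Aurkb (0.96 to 0.95). For Ctsg they were Ramp1, Hacd1, Uhrf1, Aurkb and Tcf19 (0.98 to 0.97). The genes most like Ms4a3 were Trim45, Pxylp1, Tmed3, Sephs2 and Lbp (0.94 to 0.90), and 0 of them were among the genes named for another member. The points of these correlations share runs and groups.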

How the data were processed

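The authors deposited probe intensity values, not normalized between arrays, with a detection p-value per probe and array. They also deposited log2 values, made by normexp background correction and quantile normalization of curated probes shared by beadchip versions 1.1 and 2.0, and limited to these probes. Here the intensities were corrected by normexp (offset 16, negative controls inferred from detection p, per version) and quantile normalized over the 24159 shared probes with limma 3.58.1 in R 4.3.3, and the result differed from the deposited log2 values by at most 0.163. A linear model with a mean per group and a version term (22 residual degrees of freedom) was fitted by limma over all 9 groups, and p-values were adjusted by Benjamini-Hochberg over all probes. Every adjusted p is from limma, 2-sided, and called means under 0.05. Intervals are 95% and not adjusted. The number of arrays limits the precision.

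Probes were named from the platform annotation (21157 with 1 gene, 147 with several, 2855 with none, and only the first kind was used). The members, the gene lists and the rules were chosen with earlier results of these data known. The members were counted by their brightest probes in every comparison. Values of single members, and of the other probes of Mpo and Ms4a3, are given for some comparisons only. Of each list up to 4 called genes with the largest change were named, or all where 5 or fewer were counted. The 5 genes most correlated with each member were also named. Bpi, Ctsc, Lpo, Csf3r and the other mature neutrophil genes, Runx1, Il5ra, Ccr3, Siglecf and Ltb4r1 were added after their values were seen. So were Xist, Fcgr2b, Meis1, Lmo2, Cebpd, Etv6 and Cbfb. The fit was tested on simulated data. Replicates were separate pools of mice per the study's text, no 2 arrays held identical values, and no per-sample column was left out. The motif search used the RefSeq windows of GRCm38.p6, read on both strands. Alternatives were other background, scaling, filter, version, run, weighting, replicate block, threshold and probe choices, and each array left out in turn.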

Additional observations from a re-analysis of the deposited data

Results flagged for a closer look

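In 24 sets of 4 or 5 arrays (member probe by group), 3 held an array far from the others, judged by its gap to the nearest array as a share of the group's range. Chance alone flags about 1 in 20 such sets. Mpo was at 14.41 in IL5T GMP replicate 2, with the other 4 arrays at 14.02 to 14.07. Prtn3 was at 9.98 in IL5T EoH BM replicate 3, with the others at 10.91 to 10.96, and the same array was the lowest of its group for the other 4 members too. Probe 2 of Ms4a3 was at 5.33 in IL5T EoH BM replicate 1, where it was not detected.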

How the results depend on the processing

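No value called in the fit reported or under the alternative changed direction, while 49 single-gene values called in neither changed sign, such as EoH BM minus EoM BM for Elane, which ran from -0.01 to 0.55. Of 19 comparisons, 12 kept a count of called members within 1.5 times of the value reported under every setting, and 80 of 95 single-gene results never crossed the threshold. Of 4250 single-gene alternatives 58 crossed it, 28 losing and 30 gaining the call, 21 of them by leaving out an array. The 5 calls of all 3 eosinophil groups relative to IL5T GMPs, and of EoH PB relative to IL5T EoPs, EoH BM and EoM BM, stayed at 5 of 5 when each array was left out in turn.

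Counts of called members that moved were as follows. For EoH BM minus IL5T EoP, arrays scaled to a common median called 5 in place of 3. For IL5T GMP minus CMP the count was 1 in place of 2 within the first progenitor run, 1 within the second and 1 at an adjusted p under 0.01. For IL5T EoP minus GMP it was 2 in place of 1 with no version term and 2 with only the groups compared. For WT GMP minus CMP it was 1 in place of 2 with only the groups compared and 1 at the stricter threshold. For WT EoP minus GMP it was 1 in place of 0 with no background correction, 1 with a common median, 1 with the 12898 probes detected on 3 or more arrays, 1 within the second progenitor run, 1 with array weights and 2 with only the groups compared. With only the groups compared it was also 1 in place of 0 for IL5T minus WT in EoPs and 1 in place of 0 for the interaction of genotype with EoP against GMP. Leaving out arrays gave counts of 3 to 5 for EoM BM minus EoP, 2 to 4 for EoH BM minus EoP, 1 to 2 for IL5T GMP minus CMP, for IL5T EoP minus GMP and for WT GMP minus CMP, and 0 to 1 for WT EoP minus GMP. The cause of these moves was not tested.

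Replicate numbers did not pair the arrays, since 8 of 51 same-numbered pairs had correlated deviations over 0.1 and in 0 of 16 comparisons all pairs did. With the replicate number as a block, the count was 2 in place of 4 for EoM BM minus EoP, 1 in place of 3 for EoH BM minus EoP and 0 in place of 1 for IL5T EoP minus GMP. Over all probes the block called 4080 in place of 6980, 3673 in place of 7388 and 545 in place of 2248 in these comparisons, 4698 in place of 7488 for EoH PB minus EoP, 10 in place of 167 for IL5T minus WT CMPs, 5 in place of 18 for IL5T minus WT GMPs, and 13, 59 and 89 in place of 23, 788 and 835 for the 3 interactions.

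Signals near the top of the arrays limit what can be read in GMPs, and signals near background limit what can be read in blood, where 10 of 15 member values were detected. Each comparison of eosinophils with progenitors lies across runs.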
